A study of Mus musculus with 15 samples.

Results

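T-cell receptor beta chains (TCRβ) that use the variable segment families TRBV3, TRBV14 and TRBV17 are described here. The families were chosen by their measured shares of clonotypes, which were lower in tetramer-binding CD8 T cells than in other CD8 T cells, so their shares by clonotype and by count in that contrast are given without a test. Every row of the 15 tables with one of these families was taken, which gave 7785 of 59364 clonotypes. Each clonotype is 1 nucleotide CDR3 with its V family and J cluster. TRBV3 accounted for 2539 of the clonotypes, TRBV14 for 2978 and TRBV17 for 2268. Of these, 280 came from tetramer-binding cells, among 5545 clonotypes in all, and 7505 from the other CD8 T cells, among 53819.

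All mice were of the non-obese diabetic (NOD) background, a strain that develops autoimmune diabetes, and were 125 days old. The groups were tetramer-binding CD8 T cells of Ifngr1-mutant NOD mice (mutant TET, n = 4) and of wild-type NOD mice (WT TET, n = 3), and the CD8+CD44+ flow-through of the same tetramer column from mutant mice (mutant CD8, n = 4) and wild-type mice (WT CD8, n = 4). Ifngr1 encodes the ligand-binding chain of the interferon-γ receptor; the labels call the mice mutant without naming the allele. The tetramer was H-2Kd with the IGRP206–214 peptide, which comes from a pancreatic beta cell protein, and both fractions of a mouse came from its pooled spleen and non-draining lymph nodes. The tetramer fraction was enriched on a magnetic column. The tables hold TCRβ sequences and no other genes, so cell identity could not be set against marker genes. For 1 WT mouse the CD8 library alone was used, as its TET library was not analysed here.

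A TCRβ chain is assembled from V, D and J segments, and the V segment encodes the CDR1 and CDR2 loops, which mainly contact the presenting MHC molecule, and the first residues of CDR3. The rest of CDR3 comes from the D and J segments and from bases added or trimmed at the joints, and this loop mainly contacts the peptide. The beta locus has a pair of D-J clusters. TRBD1 can join either J cluster, and TRBD2 joins TRBJ2 only. In older nomenclature, given as synonyms by RefSeq, Trbv3 is Tcrb-V16, Trbv14 is Tcrb-V13 and Trbv17 is Tcrb-V9. They lie on mouse chromosome 6 and are not neighbours. In the RefSeq order Trbv3 stands between Trbv2 and Trbv4, Trbv14 between Trbv13-3 and Trbv15, and Trbv17 between Trbv16 and Trbv18.

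The families differ in the CDR3 bases they encode, as shown by the commonest first 17 bases among clonotypes that kept at least 17 V-matched bases. TRBV13, the largest family of these libraries, is shown for comparison. In TRBV3 118 of 121 such clonotypes had the start shown, in TRBV14 20 of 20, in TRBV17 56 of 56 and in TRBV13 63 of 86. Sequences run 5′ to 3′.
TRBV3 start: tgtgccagcagcttagc
TRBV14 start: tgtgccagcagtttcga
TRBV17 start: tgtgctagcagtagagc
TRBV13 start: tgtgccagcagtgatat

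The fifth CDR3 residue, which lies at the trimmed end of V, followed these starts. Leucine stood there in 45.8% of the 59 TRBV3 clonotypes in TET and 44.8% of the 2480 in CD8. In TRBV14 it was phenylalanine in 22.8% of 136 clonotypes in TET and 26.5% of 2842 in CD8, and leucine in 19.9% and 18.5%. In TRBV17 arginine stood there in 63.5% of 85 clonotypes in TET and 51.0% of 2183 in CD8. These shares pool libraries of a fraction and were not tested.

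Total counts per library were 2536 to 60164 in TET and 17116 to 32856 in CD8, and the tables do not say whether counts are reads or molecular identifiers. As the counts come from RNA, fewer cells of a family and less receptor RNA per cell cannot be told apart. The deepest TET library, mutant TET 4, shared 18 clonotypes with WT TET 2, and these made up 88.9% of the counts of mutant TET 4 and 25.4% of those of WT TET 2. Of the 18, 2 were TRBV3, and none was of the other families described here. Whether sequences passed between libraries was not tested. The main values over TET are also given without both libraries. The largest TRBV3 clonotype of mutant TET 4 was also in WT TET 1 (10 counts) and WT TET 3 (4 counts). TRBV3 values without both libraries therefore still hold that sequence. WT TET libraries held 97 to 126 clonotypes each, of which 4 to 7 belonged to the families described, so single clonotypes move their shares.

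TRBV3 made up about 1% to 3% of TET clonotypes and about 4% to 5% of CD8 clonotypes. In mutant TET its share of clonotypes was 1.00%, 0.955%, 0.920% and 1.53% (10, 21, 15 and 6 clonotypes), and in WT TET 0.980%, 2.38% and 3.09% (1, 3 and 3 clonotypes). In mutant CD8 it was 5.13%, 4.22%, 4.53% and 4.45%, and in WT CD8 4.90%, 3.69%, 5.29% and 4.86%. No TET library reached the lowest CD8 library, and WT TET 3 came nearest to it. TET libraries averaged 1.55 ± 0.861% (SD, n = 7) and CD8 libraries 4.63 ± 0.524% (SD, n = 8), a ratio of 0.335. In mutant mice the means were 1.10 ± 0.286% in TET and 4.58 ± 0.390% in CD8 (SD, n = 4 each).

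TRBV14 was the most used of the families in mutant TET. Its share of clonotypes was 2.01%, 2.91%, 2.39% and 2.29% in mutant TET (20, 64, 39 and 9 clonotypes) and 0.980%, 2.38% and 0% in WT TET (1, 3 and 0 clonotypes). It was 4.64%, 4.78%, 5.38% and 5.97% in mutant CD8 and 5.34%, 5.27%, 4.56% and 5.69% in WT CD8. WT TET 3 had no TRBV14 count, which allows up to 0.118% of its counts (3 counts of 2536). The TET mean was 1.85 ± 1.01% (SD, n = 7) and the CD8 mean 5.20 ± 0.506% (SD, n = 8), a ratio of 0.356.

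TRBV17 was the least used of the families in CD8. Its share of clonotypes was 1.5%, 1.59%, 1.72% and 0.509% in mutant TET (15, 35, 28 and 2 clonotypes) and 1.96%, 0.794% and 2.06% in WT TET (2, 1 and 2 clonotypes). It was 3.98%, 4.39%, 4.19% and 4.14% in mutant CD8 and 4.51%, 3.82%, 4.05% and 3.63% in WT CD8. The TET mean was 1.45 ± 0.584% (SD, n = 7) and the CD8 mean 4.09 ± 0.288% (SD, n = 8), a ratio of 0.354. By mean share TRBV14, TRBV3 and TRBV17 ranked 8, 9 and 11 of 23 families in CD8, and 10, 11 and 12 in TET. In CD8 the neighbours TRBV14 and TRBV3 in this order, and TRBV3 and TRBV17, overlapped in their ranges over libraries, and in TET all the families overlapped. Without mutant TET 4 and WT TET 2 the ratios of the TET mean to the CD8 mean were 0.300 for TRBV3, 0.319 for TRBV14 and 0.432 for TRBV17.

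**Figure D1:**
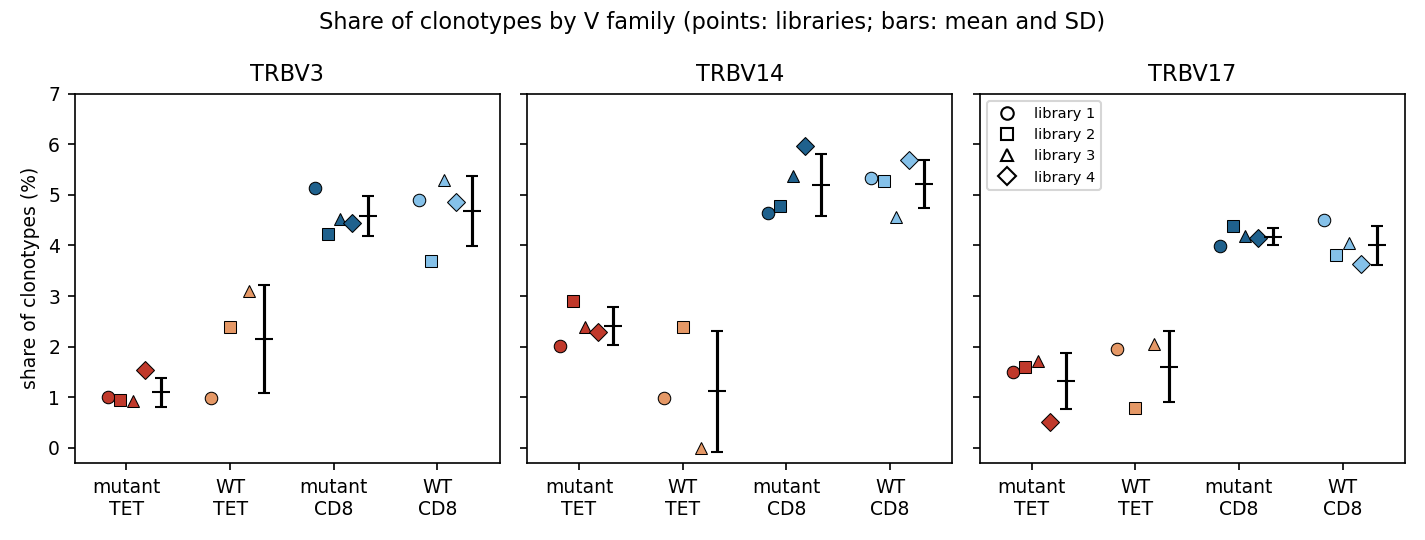
Share of a library's clonotypes (vertical axis, percent) that used TRBV3, TRBV14 or TRBV17, for mutant TET, WT TET, mutant CD8 and WT CD8. Points are libraries, with a symbol for each library number, and bars give the mean and SD. TET libraries lie between 0% and 3.09% and CD8 libraries between 3.63% and 5.97%.

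As background, edgeR's quasi-likelihood test over all V families, with strain as a covariate, called 7 of 15 families lower in TET (46.7% called) and 6 higher. The 3 families described here are among the 7 because this contrast chose them. Their fitted log2 differences, TET over CD8, were -2.08 (SE 0.19) for TRBV3, -1.12 (SE 0.15) for TRBV14 and -1.45 (SE 0.15) for TRBV17. This fit took libraries of the same mouse as independent. Its values need not match the ratios of mean shares given above, in which each library counts equally. They describe the contrast that chose the families and do not test it. In 7 of 15 families (46.7%) each TET library had a lower clonotype share than each CD8 library. The other four were TRBV12, TRBV15, TRBV16 and TRBV29, with ratios of TET to CD8 means of 0.0112, 0.167, 0.0732 and 0.623.

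The families nearest to each in how use was spread over the 4 groups were found by a distance that uses the shares that chose the families, so that a likeness among them is built in. It was the Euclidean distance between group mean shares, each divided by the family's mean over the groups, and was taken among families with at least 1% of CD8 clonotypes. TRBV17 was nearest to TRBV3 (distance 0.181), followed by TRBV15 (0.439), which was nearer than TRBV14 (0.498). For TRBV14 the nearest were TRBV17 (0.336) and TRBV3 (0.498), and for TRBV17 they were TRBV3 (0.181) and TRBV14 (0.336). The distances rest on 4 group means and are descriptions.

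At equal depth the clonotype shares of TRBV14 and TRBV17 in TET again lay below those in CD8, while for TRBV3 mutant TET 4 and WT TET 3 no longer did. After each library was reduced to 2536 counts, TRBV3 held 0.759%, 0.420%, 0.363% and 5.52% of clonotypes in mutant TET, 1.05%, 1.47% and 3.09% in WT TET, 4.20%, 2.97%, 3.42% and 3.34% in mutant CD8, and 4.09%, 2.84%, 4.02% and 3.65% in WT CD8. Mutant TET 4 stood above each CD8 library and WT TET 3 within their range. TRBV14 had at most 1.67% in any TET library and at least 3.71% in any CD8 library at that depth. TRBV17 had at most 2.06% in any TET library and at least 3.13% in any CD8 library. Shares of the other families at that depth were not computed.

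By counts, the TET and CD8 libraries lay further apart than by clonotypes, except for TRBV3 in mutant TET 4. TRBV3 held 0.226%, 0.169%, 0.1% and 2.83% of counts in mutant TET, and 0.201%, 0.1% and 0.591% in WT TET. It held 3.82%, 2.62%, 3.11% and 2.95% in mutant CD8, and 2.97%, 2.51%, 3.63% and 3.34% in WT CD8. The 2.83% of mutant TET 4 fell within the CD8 range, and each of the other TET libraries was below it. The TET mean was 0.193 times the CD8 mean with mutant TET 4 and 0.0742 times without it, and 0.0825 times without both mutant TET 4 and WT TET 2.

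TRBV14 held 0.387%, 0.722%, 0.505% and 0.0266% of counts in mutant TET and 0.262%, 0.0401% and 0% in WT TET. In mutant CD8 it held 3.57%, 3.83%, 5.06% and 5.97%, and in WT CD8 4.00%, 4.08%, 3.30% and 4.80%. TRBV17 held 0.301%, 0.334%, 0.300% and 0.00332% in mutant TET and 0.342%, 0.00669% and 0.670% in WT TET, against 2.93%, 2.86%, 3.66% and 3.27% in mutant CD8 and 3.28%, 2.99%, 3.84% and 2.99% in WT CD8. For both families each TET library was below each CD8 library. By clonotypes this held for 7 of 15 families (46.7%), and by counts it was not examined over all families. The lowest TET shares above 0 were in mutant TET 4 and WT TET 2. The TET mean was 15.6-fold lower than the CD8 mean for TRBV14 and 11.5-fold lower for TRBV17. Without mutant TET 4 and WT TET 2 these were 11.5-fold and 8.29-fold.

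**Figure D2:**
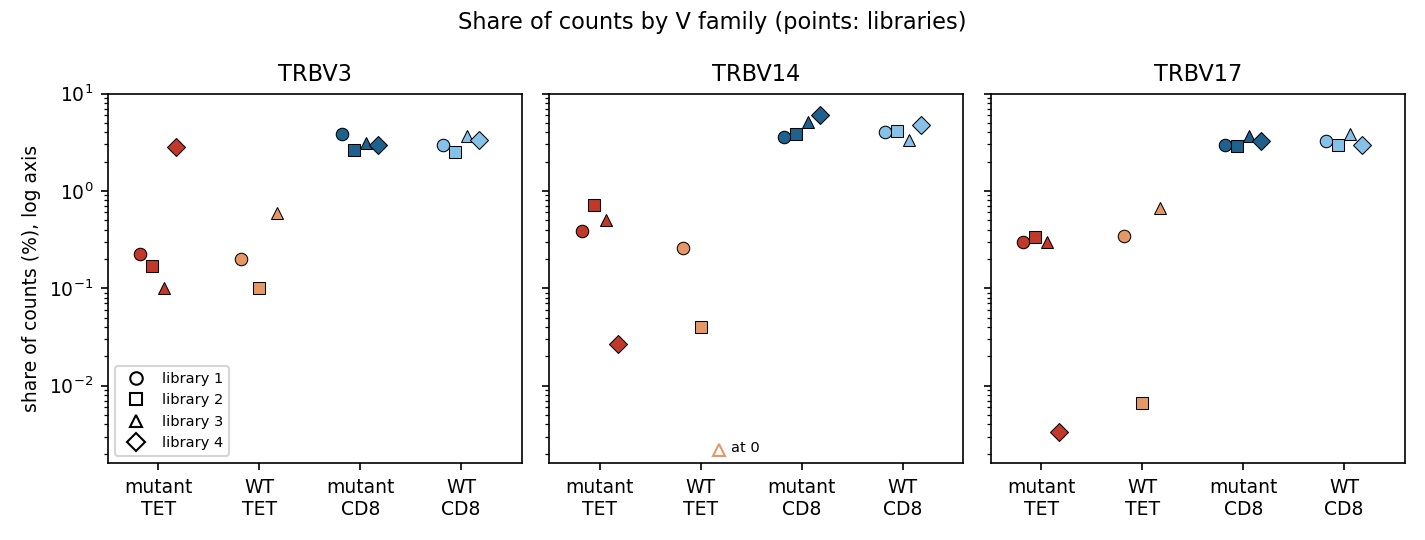
Share of a library's counts (vertical log axis, percent) in TRBV3, TRBV14 and TRBV17 clonotypes, by group. Points are libraries; the open symbol marks WT TET 3, which had no TRBV14 count. Mutant TET 4 is highest of the TET libraries for TRBV3 (2.83%) and lowest for TRBV17 (0.00332%).

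Whether the Ifngr1 mutation went with a different use of these families was tested on clonotypes per V family, a contrast that did not choose them. In CD8 it was not detected: the log2 differences, mutant over WT, were -0.04 (SE 0.10) for TRBV3, 0.01 (SE 0.09) for TRBV14 and 0.09 (SE 0.08) for TRBV17, with adjusted p of 0.808, 0.909 and 0.671 by edgeR's quasi-likelihood test. Of 17 families tested 0 were called (0% called), 0 had an unadjusted p under 0.05, and by DESeq2 0 were called.

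In TET the mutant libraries had a mean TRBV3 share of 1.10 ± 0.286% of clonotypes (SD, n = 4), against 2.15 ± 1.07% in WT TET (SD, n = 3). For TRBV14 the means were 2.40% in mutant TET and 1.12% in WT TET, and for TRBV17 1.33% and 1.61%. The families did not pass the filter on low counts in the fit of TET libraries alone, in which 1 of 8 families was called (12.5% called). Their values were therefore taken from a fit of all 4 groups, a choice made after seeing the data, in which 1 of 15 families was called (6.67% called). The 3 families passed the filter there through their CD8 clonotypes, and the fit shared its dispersion with CD8. The values are given as descriptions, and no conclusion on strain in TET is drawn from them. The log2 differences in TET, mutant over WT, were -1.11 (SE 0.68) for TRBV3, 1.03 (SE 0.72) for TRBV14 and -0.01 (SE 0.61) for TRBV17, with edgeR adjusted p of 0.266, 0.279 and 0.993. None of the 3 was called, and WT TET held 16 clonotypes of these families in all. With mutant TET 4 and WT TET 2 left out, the log2 differences were -1.07, 2.33 and -0.31, with edgeR adjusted p of 0.579, 0.372 and 0.835.

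The strain effect in TET minus that in CD8 was, on the log2 scale, -1.06 (SE 0.68) for TRBV3, 1.02 (SE 0.73) for TRBV14 and -0.11 (SE 0.62) for TRBV17. The edgeR adjusted p were 0.311, 0.332 and 0.865. This fit, too, held these families through their CD8 clonotypes, so its TET side has the same limit. Of 15 families 0 were called (0% called), 3 of them had an unadjusted p under 0.05, and by DESeq2 0 were called.

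No strain difference in the share of counts passed its test. In TET the differences of means, mutant minus WT, were 0.535 percentage points for TRBV3 (two-sided exact permutation p = 0.857, adjusted 0.943), 0.310 for TRBV14 (exact permutation p = 0.171, adjusted 0.269) and -0.105 for TRBV17 (exact permutation p = 0.600, adjusted 0.733). The TRBV3 difference rested on mutant TET 4: it was -0.133 points without that library and -0.231 without both mutant TET 4 and WT TET 2. In CD8 the differences were 0.0151 points for TRBV3 (exact permutation p = 1, adjusted 1), 0.558 for TRBV14 (exact permutation p = 0.429, adjusted 0.566) and -0.0952 for TRBV17 (exact permutation p = 0.657, adjusted 0.774). Adjusted values cover all 33 exact tests together. The smallest p was 0.0286 for either fraction, so no strain difference in the share of counts could have passed after adjustment here.

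Clone size was compared within each library, as the log2 ratio of the mean count per clonotype of the family to that of all clonotypes outside the family. In CD8 the clonotypes of each family were smaller than those of the other families in 8 of 8 libraries. The mean log2 ratio was -0.60 for TRBV3 (1.52-fold smaller), -0.30 for TRBV14 (1.23-fold) and -0.36 for TRBV17 (1.28-fold). Each had a two-sided exact sign-flip permutation p of 0.00781, the smallest that 8 libraries allow, and an adjusted p of 0.0430. The comparator includes TRBV13, the largest family. With TRBV13 left out of the other families, an alternative added after seeing the data, the TRBV3 value was -0.24 and its adjusted p 0.0430. The TRBV14 value became 0.07 (exact permutation p = 0.211) and the TRBV17 value 0.00 (exact permutation p = 0.891), so smaller clones in CD8 were found relative to families other than TRBV13 for TRBV3 and not for TRBV14 or TRBV17.

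In TET the gap was wider in most libraries. For TRBV3 the log2 ratio was -2.16, -2.51, -3.21 and 0.91 in mutant TET and -2.30, -4.60 and -2.42 in WT TET. For TRBV14 it was -2.40, -2.04, -2.27 and -6.46 in mutant TET and -1.92 and -5.93 in WT TET 1 and WT TET 2. For TRBV17 it was -2.34, -2.27, -2.54 and -7.27 in mutant TET and -2.54, -6.90 and -1.64 in WT TET. All but the TRBV3 value of mutant TET 4 were negative, and for TRBV14 and TRBV17 the lowest values were those of mutant TET 4 and WT TET 2.

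The means were -2.33 for TRBV3 (negative in 6 of 7 libraries, exact sign-flip permutation p = 0.0312, adjusted 0.0793), -3.50 for TRBV14 (6 of 6, exact permutation p = 0.0312, adjusted 0.0793) and -3.64 for TRBV17 (7 of 7, exact permutation p = 0.0156, adjusted 0.0737). For TRBV14 and TRBV17 these are the smallest p that 6 and 7 libraries allow, and for TRBV3 the smallest was 0.0156. No value of any of these families could therefore have passed after adjustment here. As folds the means were 5.02, 11.3 and 12.5 times smaller. Without mutant TET 4 and WT TET 2 the mean log2 ratios were -2.52, -2.16 and -2.27, or 5.74, 4.46 and 4.81 times smaller. With TRBV13 left out of the comparator, and all libraries kept, they were -0.13, -1.28 and -1.65 (exact sign-flip permutation p = 0.969, 0.0312 and 0.0156). Smaller TRBV3 clones in TET were thus not found relative to families other than TRBV13. The TRBV14 and TRBV17 values did not pass after adjustment (adjusted 0.0793 and 0.0737).

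**Figure D3:**
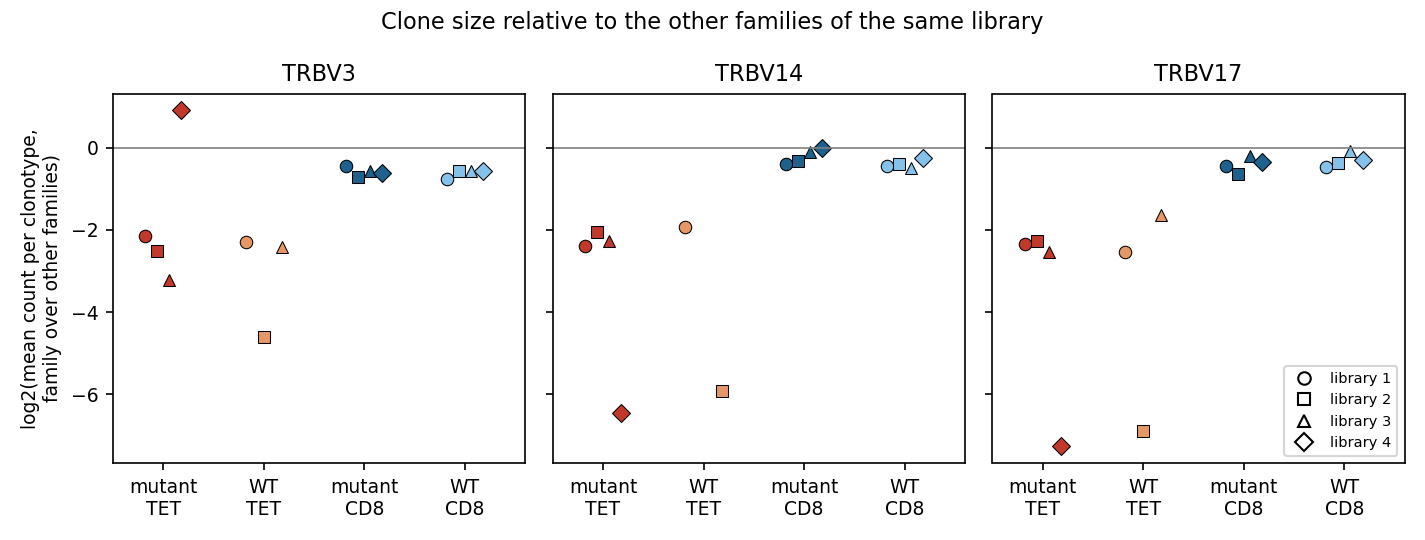
Log2 ratio of the mean count per clonotype in TRBV3, TRBV14 or TRBV17 to that of all other families of the same library (vertical axis), by group. Points are libraries and the grey line marks an equal size. In CD8 all points lie between -0.75 and 0.00, and in TET all but the TRBV3 point of mutant TET 4 (0.91) lie below -1.

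The largest clonotype of these families in each TET library was small, apart from mutant TET 4. In mutant TET 1, 2 and 3 it was a TRBV14 clonotype of 10, 8 and 10 counts, which was 0.0578% (exact 95% interval 0.0277% to 0.106%), 0.0356% (0.0154% to 0.0702%) and 0.0455% (0.0218% to 0.0837%) of the library. These stood at rank 364, 614 and 374 by count. In WT TET 1 a TRBV14 clonotype of 13 counts made up 0.262% (0.139% to 0.447%), and a TRBV17 clonotype had the same count. In WT TET 2 a TRBV3 clonotype of 13 counts made up 0.0869% (0.0463% to 0.149%), and in WT TET 3 a TRBV17 clonotype of 13 counts made up 0.513% (0.273% to 0.875%). In mutant TET 4 a TRBV3 clonotype of 1272 counts made up 2.11% (2.00% to 2.23%), at rank 14. Intervals cover counting error only. The CDR3 sequences follow, with the bases between the V-matched and J-matched parts in capitals.
mutant TET 1, TRBV14, TRBJ1: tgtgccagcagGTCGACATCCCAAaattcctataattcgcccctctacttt
mutant TET 2, TRBV14, TRBJ1: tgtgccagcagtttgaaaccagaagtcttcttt
mutant TET 3, TRBV14, TRBJ2: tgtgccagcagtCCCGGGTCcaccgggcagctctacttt
mutant TET 4 and WT TET 2, TRBV3, TRBJ2: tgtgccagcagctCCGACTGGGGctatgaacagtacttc
WT TET 1, TRBV14, TRBJ2: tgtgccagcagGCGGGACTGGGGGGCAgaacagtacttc
WT TET 3, TRBV17, TRBJ2: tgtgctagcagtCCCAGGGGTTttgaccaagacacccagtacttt

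The clonotype in mutant TET 4 and WT TET 2 encodes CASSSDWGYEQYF. With V family and amino acid CDR3 taken as a receptor, it was the 1 receptor of these families found in at least 3 TET libraries. It had 1272 counts in mutant TET 4, 10 in WT TET 1, 13 in WT TET 2 and 4 in WT TET 3, from the same nucleotide sequence each time, and it was absent from mutant TET 1, 2 and 3. In CD8 that nucleotide sequence had 2 counts in mutant CD8 4, the same mouse as mutant TET 4. Another sequence for the same amino acids had 1 count in mutant CD8 3. The counts in the WT TET libraries were low beside that of mutant TET 4, and whether they came from sequences passed between libraries was not tested. Without mutant TET 4 and WT TET 2 it was in 2 TET libraries, and 0 receptors of these families were in 3 or more. The receptor averaged 0.366% of counts over the 7 TET libraries, and 0.0743% over the 6 without mutant TET 4.
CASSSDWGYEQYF in TET and mutant CD8 4: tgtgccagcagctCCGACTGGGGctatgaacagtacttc
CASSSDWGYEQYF in mutant CD8 3: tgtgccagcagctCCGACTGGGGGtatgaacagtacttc

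Mutant TET 4 held 6 TRBV3 clonotypes, all with TRBJ2. After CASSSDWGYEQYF these were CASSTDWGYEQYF with 263 counts (1 count in WT TET 2), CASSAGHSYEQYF with 95 (1 count in mutant CD8 4), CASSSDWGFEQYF with 51, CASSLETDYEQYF with 23 and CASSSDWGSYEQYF with 1. The residues DWG were in 4 of the 6. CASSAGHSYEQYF, the third by count, is shown beside 2 that hold DWG.
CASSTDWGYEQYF: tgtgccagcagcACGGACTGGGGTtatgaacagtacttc
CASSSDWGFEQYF: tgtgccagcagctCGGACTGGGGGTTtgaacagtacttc
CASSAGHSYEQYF: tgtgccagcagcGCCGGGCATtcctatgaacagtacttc

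The residues DWG, chosen after the sequences were seen and so described without a test, can be read from TRBD2. They occurred in 7 of 52 TRBV3 clonotypes in mutant TET (13.5%), 4 of 7 in WT TET (57.1%), 134 of 1396 in mutant CD8 (9.60%) and 85 of 1084 in WT CD8 (7.84%). By counts they made up 88.2% of TRBV3 in mutant TET and 70.0% in WT TET, against 9.83% in mutant CD8 and 7.65% in WT CD8. The mutant TET share of counts is that of mutant TET 4, which held 1705 TRBV3 counts where the other three held 39, 38 and 22. In mutant TET 1 to 3 DWG made up 4 of 99 TRBV3 counts (4.04%), below the CD8 shares, and 3 of 46 clonotypes (6.52%). Without WT TET 2, WT TET had DWG in 14 of 25 TRBV3 counts and 2 of 4 clonotypes. All of these were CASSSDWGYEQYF from the nucleotide sequence of mutant TET 4, with 10 counts in WT TET 1 and 4 in WT TET 3. In WT TET 2 the TRBV3 clonotypes with DWG, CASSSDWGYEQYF and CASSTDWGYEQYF, were also those of mutant TET 4. The WT TET shares therefore rest on sequences shared with mutant TET 4, and passage between libraries was not tested. In TRBV14 the residues occurred in 1 of 132 clonotypes in mutant TET and 1 of 4 in WT TET, with 5.84% of 1645 in mutant CD8 and 4.43% of 1197 in WT CD8. In TRBV17 they occurred in 2 of 80 and 2 of 5 clonotypes in mutant TET and WT TET, with 3.56% of 1293 in mutant CD8 and 3.48% of 890 in WT CD8. In the other families the shares of clonotypes were 3.03% in mutant TET, 3.56% in WT TET, 6.12% in mutant CD8 and 5.83% in WT CD8.

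Receptors of TRBV14 and TRBV17 recurred among TET libraries less often than those of the other families, and TRBV3 receptors did not. These shares rest on few receptors and were not tested. TRBV3 had 52 TET receptors, of which 5 (9.62%) were in at least 2 TET libraries. For TRBV14 these were 5 of 128 (3.91%) and for TRBV17 3 of 82 (3.66%), against 366 of 4739 (7.72%) in the other families. Without mutant TET 4 and WT TET 2 these were 4 of 46, 5 of 117 and 3 of 79, against 308 of 4352 (7.08%). Of the TET receptors, 7 of 52 in TRBV3 (13.5%), 16 of 128 in TRBV14 (12.5%) and 7 of 82 in TRBV17 (8.54%) were also in some CD8 library, against 19.2% in the other families. In CD8, 3.42% of 2312 TRBV3 receptors, 3.16% of 2659 TRBV14 receptors and 2.73% of 2052 TRBV17 receptors were in at least 2 CD8 libraries, against 6% of 41439 in the other families. No receptor was in all 8 CD8 libraries.

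For each family the 3 receptors that occurred in the largest number of CD8 libraries are named. None of these 9 was found in TET. Few CD8 receptors were in any TET library: 7 of 2312 in TRBV3, 16 of 2659 in TRBV14 and 7 of 2052 in TRBV17. In the other families it was 908 of 41439. The absence of the 9 is therefore not read as a trait of theirs. For TRBV3 the widest had a CDR3 of 15 residues, in 5 CD8 libraries (2 mutant, 3 WT) from 4 nucleotide sequences, and was followed by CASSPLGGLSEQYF and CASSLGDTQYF, in 3 each. For TRBV14 they were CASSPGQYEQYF in 4 libraries, and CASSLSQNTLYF and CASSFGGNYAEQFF in 3 each. For TRBV17 they were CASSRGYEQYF and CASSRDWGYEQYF in 4 each and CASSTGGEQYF in 3. All used TRBJ2. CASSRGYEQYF is shown because it was encoded by a different nucleotide sequence in each of its 4 libraries, so that none of these libraries shared a clonotype there.
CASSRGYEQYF, WT CD8 3: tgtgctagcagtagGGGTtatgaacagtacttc
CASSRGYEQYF, mutant CD8 4: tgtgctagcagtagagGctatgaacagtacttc
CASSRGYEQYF, mutant CD8 3: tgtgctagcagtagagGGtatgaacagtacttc
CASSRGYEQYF, mutant CD8 2: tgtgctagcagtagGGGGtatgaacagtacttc
The widest TRBV3 receptor of CD8 had these sequences.
mutant CD8 4 and WT CD8 3: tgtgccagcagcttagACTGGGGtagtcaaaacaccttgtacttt
mutant CD8 1: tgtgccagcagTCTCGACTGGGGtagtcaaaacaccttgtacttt
WT CD8 1: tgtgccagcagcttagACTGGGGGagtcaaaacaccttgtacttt
WT CD8 4: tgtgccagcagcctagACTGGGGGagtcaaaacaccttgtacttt

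Whether tetramer-binding clonotypes were also seen among the other CD8 T cells of the same mouse was compared with the other families. In mutant mice 2 of 52 TRBV3 clonotypes (3.85%), 0 of 132 TRBV14 and 0 of 80 TRBV17 clonotypes of TET were in the own CD8 library, against 109 of 4956 (2.20%) in the other families. Both TRBV3 clonotypes were in mutant TET 4. In WT mice the counts were 0 of 7, 0 of 4 and 0 of 5, against 11 of 309 (3.56%). The mean within-mouse difference from the other families, over mice with at least 5 TET clonotypes of the family, was 5.81 percentage points for TRBV3 (exact sign-flip permutation p = 1), -2.68 for TRBV14 (exact permutation p = 0.125) and -2.09 for TRBV17 (exact permutation p = 0.250). With 4, 4 and 3 mice the smallest p were 0.125, 0.125 and 0.250, so no difference could pass. Without mutant TET 4 the TRBV3 value was -2.07.

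In CD8 TRBV3 and TRBV17 joined the TRBJ1 cluster less often than the other families did. TRBJ1 was used by 26.4%, 18.1%, 18.6% and 18.5% of TRBV3 clonotypes in mutant CD8 and by 23.0%, 21.4%, 21.4% and 26.3% in WT CD8. For TRBV17 the shares were 16.8%, 14.7%, 16.4% and 16.0% in mutant CD8 and 16.3%, 22.7%, 16.3% and 18.3% in WT CD8. The families other than these 3 had 26.8% to 29.7% in mutant CD8 and 27.8% to 32.2% in WT CD8. Within libraries the difference from all clonotypes outside the family was -11.5 percentage points on average for TRBV17 and -6.81 for TRBV3, negative in 8 of 8 libraries for each (two-sided exact sign-flip permutation p = 0.00781, adjusted 0.0430). Without TRBV13 in the comparator the differences were -9.75 and -4.92.

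TRBV14 used TRBJ1 in 19.6%, 22.8%, 20.4% and 21.8% of clonotypes in mutant CD8 and in 31.2%, 23.9%, 26.3% and 19.6% in WT CD8. It was lower than the other families in 7 of 8 libraries, with a mean difference of -5.28 points, which did not pass after adjustment (exact permutation p = 0.0234, adjusted 0.0793). Between strains the TRBJ1 share in CD8 differed by -2.61 points for TRBV3 (exact permutation p = 0.400), -4.12 for TRBV14 (exact permutation p = 0.143) and -2.41 for TRBV17 (exact permutation p = 0.200), mutant minus WT.

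In mutant TET, over the 3 libraries with at least 10 clonotypes of a family, TRBJ1 was used by 20%, 28.6% and 26.7% of TRBV3, by 35.0%, 28.1% and 28.2% of TRBV14 and by 33.3%, 22.9% and 3.57% of TRBV17 clonotypes. All 3 TRBV14 values exceeded the 4 of mutant CD8, by a mean of 9.29 points (exact permutation p = 0.0286, adjusted 0.0793). That is the smallest p for unpaired libraries, and it could not pass after adjustment here. The TRBV3 difference was 4.67 points (exact permutation p = 0.171) and the TRBV17 difference 3.95 (exact permutation p = 0.600). These tests took libraries of the same mouse as independent. With same-numbered libraries paired, the TRBV14 difference was 9.51 (exact sign-flip permutation p = 0.25, the smallest that 3 mice allow). Without single-count clonotypes and unpaired it was 5.23 (exact permutation p = 0.4). The families other than these 3 had, in mutant TET 1 to 3, 44.7%, 45.9% and 44.6%, against 26.8% to 29.7% in mutant CD8. A higher TRBJ1 share in mutant TET was therefore not particular to TRBV14. In WT TET 1 of the 16 clonotypes used TRBJ1, a TRBV14 clonotype of WT TET 2.

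**Figure D4:**
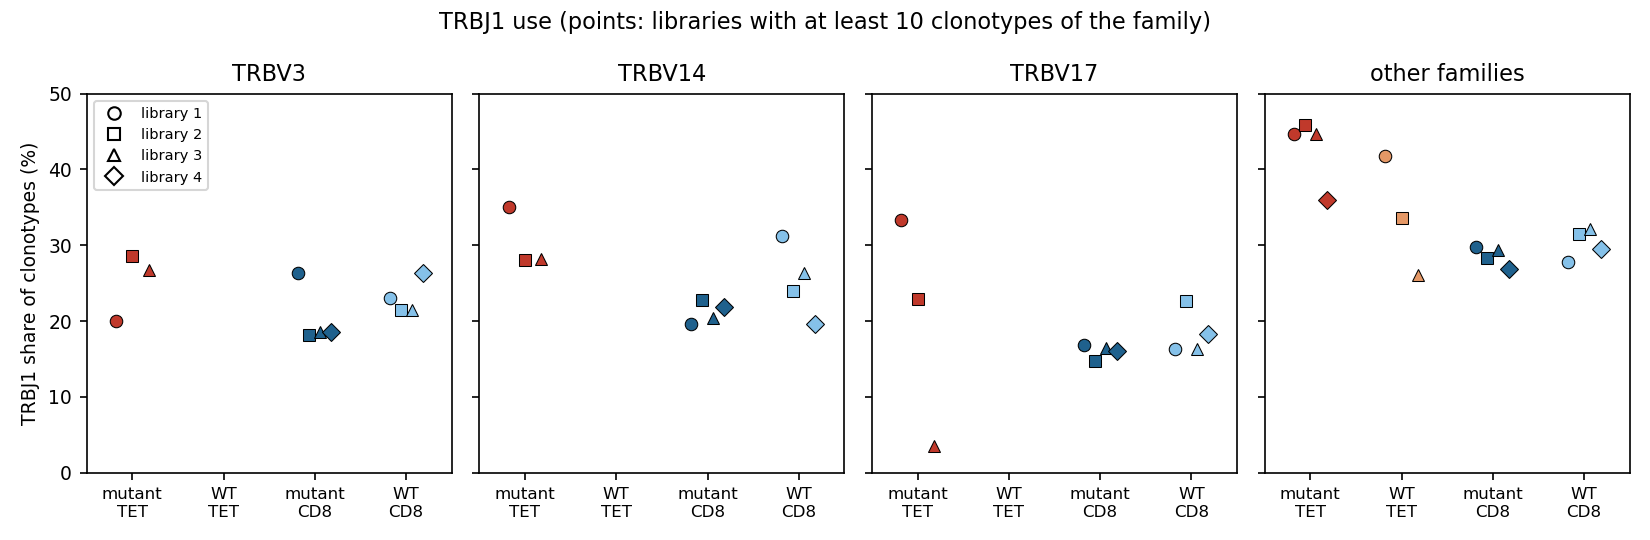
Share of clonotypes that used the TRBJ1 cluster (vertical axis, percent) in TRBV3, TRBV14, TRBV17 and all other families, by group. Points are libraries with at least 10 clonotypes of the family, which leaves out WT TET and mutant TET 4 for the first 3 panels. In CD8 TRBV17 lies between 14.7% and 22.7% and the other families between 26.8% and 32.2%.

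CDR3 length differed among the families in CD8. TRBV3 CDR3s averaged 14.2 ± 0.0714 residues (SD over 8 libraries), TRBV14 13.8 ± 0.0974 and TRBV17 14.0 ± 0.114. TRBV3 CDR3s were longer than those of the other families of the same library by a mean of 0.372 residues, in 8 of 8 libraries (two-sided exact sign-flip permutation p = 0.00781, adjusted 0.0430). For TRBV14 the difference was -0.0824 (negative in 7 of 8, exact permutation p = 0.0703, adjusted 0.155) and for TRBV17 0.119 (positive in 6 of 8, exact permutation p = 0.0312, adjusted 0.0793). With TRBV13 left out of the comparator TRBV3 was longer by 0.260 and TRBV14 differed by -0.208, both with an adjusted p under 0.05, while the TRBV17 difference was 0.000246.

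The parts of CDR3 differed in size too. In CD8 V-matched bases averaged 14.0 in TRBV3, 13.0 in TRBV14 and 14.3 in TRBV17, and the bases between V and J 9.84, 9.59 and 9.16. TRBD2 was assigned to 44.7 ± 2.19% of TRBV3 clonotypes in mutant CD8 and to 38.8 ± 2.87% in WT CD8, to 30.4 ± 1.32% and 25.8 ± 3.02% of TRBV14, and to 32.9 ± 2.29% and 34.0 ± 1.99% of TRBV17 (SD, n = 4 each). These values were not tested.

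Between strains CDR3 length in CD8 differed by 0.0745 residues for TRBV3 (exact permutation p = 0.171), 0.0320 for TRBV14 (exact permutation p = 0.686) and 0.00192 for TRBV17 (exact permutation p = 1), mutant minus WT. In mutant TET the TRBV3 means were 14.2, 14.1 and 13.9 residues, the TRBV14 means 13.3, 13.6 and 13.8 and the TRBV17 means 14.5, 14.1 and 14.6. Against mutant CD8, TRBV3 differed by -0.194 (exact permutation p = 0.0286, adjusted 0.0793), TRBV14 by -0.237 (exact permutation p = 0.0571, adjusted 0.135) and TRBV17 by 0.357 (exact permutation p = 0.0857, adjusted 0.177). None passed after adjustment, and with 0.0286 as the smallest p of each of these tests none could have passed here. The tests against mutant CD8 took libraries of the same mouse as independent. With same-numbered libraries paired, those differences were -0.166, -0.27 and 0.306 (exact sign-flip permutation p = 0.25, 0.25 and 0.5).

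**Figure D5:**
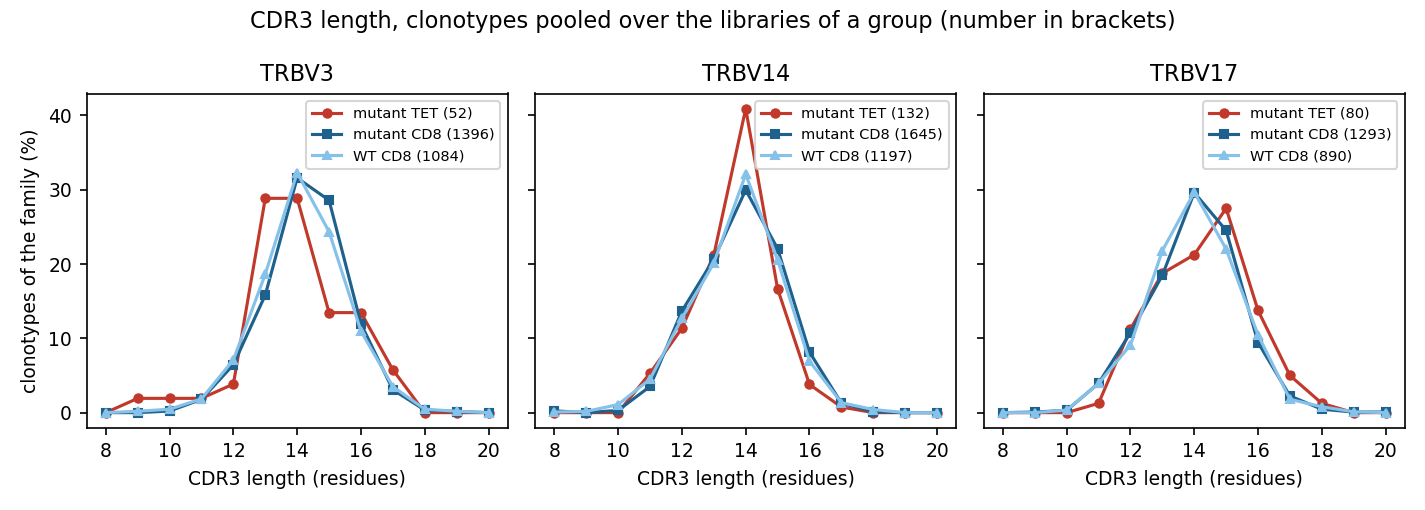
Distribution of CDR3 length in residues (horizontal axis) as percent of the family's clonotypes (vertical axis), pooled over the libraries of mutant TET, mutant CD8 and WT CD8. The mutant TET lines rest on 52, 132 and 80 clonotypes, and the mutant CD8 and WT CD8 lines lie close together.

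Clonotypes with a single count were a larger share of TRBV14 and TRBV17 than of the other families in each mutant TET library, which was not so in WT TET or in every CD8 library. In mutant TET 1 to 4 they were 20%, 47.6%, 66.7% and 16.7% of TRBV3 clonotypes, 45.0%, 45.3%, 56.4% and 66.7% of TRBV14, and 40.0%, 54.3%, 50% and 100% of TRBV17. The families other than these 3 had 24.3%, 27.7%, 37.5% and 47.9%. TRBV3 exceeded that share in mutant TET 2 and 3 and lay below it in mutant TET 1 and 4. In WT TET, with 4 to 7 clonotypes of these families a library, 0% of TRBV14 in WT TET 1 and 2 and 0% of TRBV17 in WT TET 1 and 3 had a single count, and 1 TRBV17 clonotype in WT TET 2 had. In CD8 the share was above that of the other families in 8 of 8 libraries for TRBV3, 6 of 8 for TRBV14 and 5 of 8 for TRBV17. These comparisons were not tested.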

How the data were processed

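TCRβ cDNA with 9-nt molecular identifiers was amplified by 5′RACE and sequenced on a MiSeq, per the labels' protocols. The authors deposited, for each library, the count of every nucleotide CDR3 and its fraction of a library total that also includes sequences not listed; the tables held 94.2% to 99.2% of it. The CDR3 length, number of V- and J-matched bases, and V family, J cluster and D names were read as deposited. Names of an aligner, a caller and a build were not given in the sources used here. After 4 alpha chain entries (6 counts) were left out, shares were recomputed from the counts. The members, lists and tests were chosen with earlier results of these data known.

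Clonotypes per V family were fitted with edgeR 4.0.16 in R 4.3.3 (library size the number of clonotypes, no further normalization, filterByExpr minimum count of 10, Benjamini-Hochberg over families, called at an adjusted p under 0.05). Single values used two-sided exact permutation tests over all arrangements of the libraries, and within-library or within-mouse differences used exact sign flips, adjusted over all 33. Both were computed with numpy 2.4.6. The exact 95% intervals came from scipy 1.17.1. DESeq2 1.42.0, TMM factors, no filter, removal of single-count clonotypes, a share minimum of 0.1%, rarefaction (200 repeats) and leaving out libraries were alternatives; leaving TRBV13 out, leaving out mutant TET 4 and WT TET 2 together, and the fit of 4 groups for strain in TET were added after seeing the data. Named receptors were those in at least 3 TET libraries, the largest of each TET library, and the 3 in most CD8 libraries per family. The scripts were tested on simulated data.

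Within a strain, a TET and a CD8 library with the same number were treated as 1 mouse, because the design text counts the same mice for both fractions. Deviations in V family use over 15 families correlated between them with r from -0.54 to 0.572, and r was highest with the own CD8 library in 1 of 7 mice, so the pairing rests on the text. Nothing says that mice of different strains share a number.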

Additional observations from a re-analysis of the deposited data

Results flagged for a closer look

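Of 39 groups of 4 libraries examined, 7 had a library far from the others; chance marks about 1 in 20. Of the 7, 5 concerned mutant TET 4. Its TRBV3 shares, 1.53% of clonotypes and 2.83% of counts, were above those of the other mutant TET libraries. Its TRBV17 share of counts, 0.00332%, and its log2 relative clone sizes of TRBV14, -6.46, and of TRBV17, -7.27, were below theirs. In CD8, the TRBV3 relative clone size of WT CD8 1, -0.75, and the TRBV3 TRBJ1 share of mutant CD8 1, 26.4%, stood apart from the other libraries of their groups. None of these was tested further.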

How the results depend on the processing

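The 51 results had 647 values under alternatives, of which 549 counted as the same. For tested results this means the same direction and side of the threshold. Where the smallest p could not have passed after adjustment, that side was fixed in advance. For TET minus CD8 shares, which had no test and include those that chose the families, it means the same direction and a move smaller than the SD over TET libraries. The total is therefore not read as a measure of robustness. For counts of families called it means a change within a set fold. Leaving out 1 library ended the calls against the other families in CD8, since 7 libraries cannot give an exact p under 0.0156 (adjusted 0.0737); the values kept their direction. Their ranges were -7.47 to -6.37 (TRBV3 TRBJ1 share), 0.353 to 0.386 (TRBV3 length), -12 to -11 (TRBV17 TRBJ1 share), and -0.62 to -0.58, -0.34 to -0.27 and -0.40 to -0.32 (relative clone size of TRBV3, TRBV14 and TRBV17). With TRBV13 left out of the comparator in CD8, relative clone size was 0.07 for TRBV14 and 0.00 for TRBV17, and TRBV14 length passed at -0.208.

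The following had passed no threshold. Leaving out 1 library, the ranges crossed 0 for the strain difference in count share (TET: TRBV3 -0.133 to 0.779, TRBV17 -0.272 to 0.0602; CD8: TRBV3 -0.215 to 0.187, TRBV17 -0.255 to 0.0934), in CD8 length (TRBV17 -0.0588 to 0.0523, TRBV14 -0.00566 to 0.0895), in log2 use (TRBV17 in TET -0.40 to 0.21; TRBV3 -0.15 to 0.03 and TRBV14 -0.07 to 0.08 in CD8), in the TRBV17 difference of strain effects (-0.49 to 0.12), in TRBV17 TRBJ1 share in mutant TET against mutant CD8 (-2.75 to 12.1) and in TRBV3 overlap with the own CD8 library (-2.07 to 8.69). Without single-count clonotypes, values turned for TRBV3 count share in CD8 (-0.0906), CD8 length of TRBV14 (-0.0138) and TRBV17 (-0.033), TRBV17 use in CD8 (-0.03) and TRBV17 TRBJ1 share in mutant TET (-9.65). With clonotypes of at least 0.1% of counts, strain differences in count share turned for TRBV14 in TET (-0.0878) and TRBV17 in CD8 (0.435). A minimum of 5 clonotypes turned TRBV3 TRBJ1 share in mutant TET (-1.6). Without both mutant TET 4 and WT TET 2, TRBV3 count share in TET was -0.231 and its overlap -2.07. The cause was not tested.

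The count of families called between strains in TET, 1, became 0 with DESeq2, no filter, TMM factors, without single-count clonotypes and without both libraries, and 0 to 2 leaving out 1. For the difference of strain effects, 0 became 1 with TMM factors and ranged from 0 to 1 leaving out 1. Rarefied, the TRBV3 difference in clonotype share between TET and CD8 was -1.76 points. A replicate block gave 0 families for strain in TET, against 1 without it, and changed no other call; in mutant TET against mutant CD8 the blocked TRBV14 TRBJ1 difference was 9.51 (exact permutation p = 0.25). For strain contrasts the numbers pair no mice.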
